A study of Rattus norvegicus with 29 samples.

Results

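The let-7 family of microRNAs (miRNAs) was examined in plasma small RNA sequencing of 29 adult male Sprague-Dawley rats. Its members were the 9 mature 5p miRNAs named rno-let-7a-5p, rno-let-7b-5p, rno-let-7c-5p, rno-let-7d-5p, rno-let-7e-5p, rno-let-7f-5p, rno-let-7g-5p, rno-let-7i-5p and rno-miR-98-5p. They were chosen by name, and they were 9 of the 754 miRNAs in the count table. Blood was drawn from the tail vein under isoflurane 48 h after lateral fluid-percussion traumatic brain injury (TBI) or a sham operation, a procedure without the percussion. The rats came from 3 study sites, UEF, Monash and UCLA. In this order of sites, the 10 sham rats were 4, 3 and 3, the 10 injured rats without later epilepsy (TBIN) were 4, 3 and 3, and the 9 injured rats with later epilepsy (TBIE) were 4, 2 and 3. All groups shared the strain, sex, planned sampling time and anesthetic, and 1 plasma sample of each rat was sequenced. Per the study, the sites differed in vendor, diet, housing before surgery, analgesic and length of anesthesia at sampling. Only Monash gave medical oxygen, only UCLA gave chow with antibiotics, and UCLA did not record the exact sampling time. These differences go with site and cannot be told apart from it. Plasma has no cells of its own, and its miRNAs come from many sources, so fewer releasing cells and less miRNA released per cell could not be told apart.

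A miRNA guides the silencing complex to messenger RNAs through its seed, bases 2 to 8 from its 5′ end. The let-7 family is among the most abundant miRNA families of adult tissues. It is known for keeping cells differentiated by repressing growth genes such as Ras, Myc, Hmga2 and Lin28, and the LIN28 protein blocks the maturation of let-7 precursors in return. Most let-7 members are abundant in blood cells, and let-7 miRNAs released from injured neurons have been studied as ligands of Toll-like receptor 7.

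The 9 mature sequences are shown because the members are told apart by only a few bases outside the seed. All 9 were found by name among the mature rat miRNAs of RefSeq (assembly GRCr8), and the seed is in capitals.
rno-let-7a-5p: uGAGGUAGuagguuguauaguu
rno-let-7b-5p: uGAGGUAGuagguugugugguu
rno-let-7c-5p: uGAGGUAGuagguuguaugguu
rno-let-7d-5p: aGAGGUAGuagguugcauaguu
rno-let-7e-5p: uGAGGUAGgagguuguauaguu
rno-let-7f-5p: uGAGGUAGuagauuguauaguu
rno-let-7g-5p: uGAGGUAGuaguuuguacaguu
rno-let-7i-5p: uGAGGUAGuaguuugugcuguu
rno-miR-98-5p: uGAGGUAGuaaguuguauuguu

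All 9 carried the seed GAGGUAG, and of the 693 mature rat names in that reference no other carried it. Each was 22 bases long. The paper names biases in library amplification, which were not measured here, so members set side by side compare counts rather than molecules. Counted from the 5′ end, with the base of let-7a first, let-7c differed from let-7a at A19G, let-7e at U9G and let-7f at G12A. let-7b carried A17G A19G, let-7d U1A U16C, let-7g G12U U18C and miR-98 G11A A19U, and let-7i differed most, at G12U A17G U18C A19U. Of the 36 pairs of members 4 differed at 1 base. How the read mapping treated mismatches is not given in the sources used here, so the division of reads between near-identical members, let-7a, let-7b, let-7c, let-7e and let-7f above all, is uncertain. The 9 miRNAs were encoded at 12 annotated places. In that annotation let-7a-1, let-7f-1 and let-7d lay together in a long noncoding RNA gene, let-7f-2 and miR-98 in the gene Huwe1, let-7c-2 beside let-7b, let-7e beside miR-99b and miR-125a, let-7a-2 beside miR-100, let-7c-1 beside miR-99a, and let-7g in Wdr82. Coordinates are not given because the reads had been mapped to another assembly, Rnor_6.0.

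Total miRNA counts ran from 1162307 to 5223469 per rat, and 658 to 748 miRNAs had at least 10 counts. UEF sham replicate 3 stood apart, with the highest total, the lowest scaling factor of the trimmed mean of M-values (TMM, 0.333 against 0.644 to 1.76 in the other rats) and 55.1% of its counts on the liver miRNA miR-122-5p. All 19 marker miRNAs of red cells, white cells and platelets, liver and neurons were counted in every rat, the lowest at 35 counts. Between TBI and sham edgeR called 2 of the 3 liver miRNAs (miR-122-5p and miR-194-5p, both lower in TBI rats) and 1 of the 4 neuronal ones (miR-128-3p, higher). It called 0 of the 6 of red cells and 0 of the 6 of white cells and platelets. All 3 liver miRNAs were lower and all 4 neuronal ones higher in TBI rats at an unadjusted p under 0.05. In the red cell list and the white cell and platelet list 1 of 6 each had such a p. miR-122-5p took 28.1 to 55.1% of all counts in UEF sham rats, against 1.58 to 22.6% in UEF TBI rats and 0.634 to 12.9% at the other sites. The labels do not say whether rats of a group were handled on the same day, so the p-values below cover the spread between these rats.

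In every rat let-7c-5p had the most counts of the members and let-7b-5p the second most. let-7c made up 38.4% ± 5.27 (SD, n = 29) of the summed counts of the 9 members, with a range of 28.8 to 46.9%. let-7b held 25.1% of the family on average with the steadiest share of all, its coefficient of variation being 7.50% across rats. Together these members held 63.5% ± 6.76 (SD, n = 29).

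let-7a-5p followed with a mean share of 12.1%, let-7i-5p with 11.5% and let-7f-5p with 7.88%. These neighbours were not in the same order in all rats. let-7a exceeded let-7i in 19 of 29 rats, and let-7i exceeded let-7f in 24 of 29. let-7g-5p held 2.72%, let-7d-5p 1.87%, let-7e-5p 0.345% and miR-98-5p 0.101%, and each of them stood in this order in 29 of 29 rats. The counts behind these shares were large, from 46266 to 195498 for let-7c, but only 99 to 494 for miR-98. The shares of let-7i, let-7f, let-7e and miR-98 varied most from rat to rat, with coefficients of variation of 33.3%, 31.2%, 31.9% and 30.1%.

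**Figure D1:**
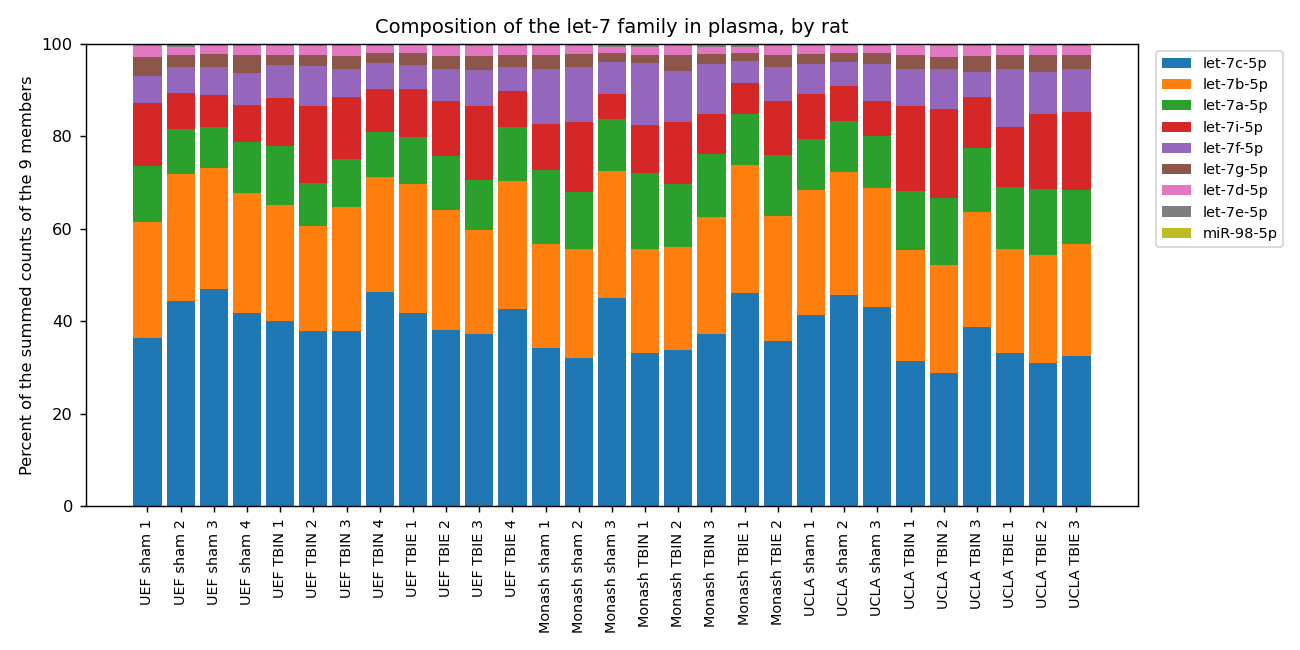
Each bar is 1 rat, ordered by site and then sham, TBIN and TBIE, and its colored segments are the percent of the summed counts of the 9 members that each member holds. let-7c and let-7b fill 52.2 to 73.8% of every bar, and the red segment of let-7i is widest, at 19.2%, in UCLA TBIN replicate 2.

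The family as a whole held 9.49% ± 2.74 (SD, n = 29) of all miRNA counts. It was lowest in UEF sham replicate 1 with 4.70% and highest in Monash sham replicate 3 with 16.3%. The 4 UEF sham rats had 4.70%, 7.70%, 6.32% and 6.04%, and the 8 UEF TBI rats lay between 6.40% and 11.1% with a median of 8.71%. UEF sham and TBI rats overlapped, and with miR-122-5p left out of the total the order of their means turned, with 10.8% ± 3.22 (SD, n = 4) in sham and 9.57% ± 1.65 (SD, n = 8) in TBI rats. At Monash the share was 10.1%, 10.3% and 16.3% in the sham rats and 14.6%, 8.87%, 14.2%, 12.97% and 9.58% in the TBI rats, and these groups overlapped. At UCLA it was 10.5%, 10.9% and 11.6% in the sham rats, and 5.79 to 11.2% with a median of 8.75% in the TBI rats, which overlapped them as well.

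The first comparison asked whether injury changed the members, taking the mean of TBIN and TBIE against sham with site in the model. None of the 9 members passed the adjusted p threshold of 0.05 in edgeR, none had an unadjusted p under 0.05, and DESeq2 called none either. Over all 751 miRNAs tested 9 were called, which is 1.2%. Of the members 5 had positive and 4 had negative log2 fold changes, with a median of 0.10 beside 0.03 over all miRNAs tested. The largest estimates were 0.47 (SE 0.288, adjusted p 0.607) for let-7i, 0.39 (SE 0.219, adjusted p 0.560) for miR-98 and -0.51 (SE 0.287, adjusted p 0.563) for let-7e, all from edgeR's quasi-likelihood test. The other 6 members lay between -0.23 (let-7c) and 0.17 (let-7f).

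The level of let-7i-5p in CPM (counts set to the same TMM-scaled library total in every rat) was 6235, 7284, 13058 and 4114 in the UEF sham rats, and 4049 to 28727 with a median of 8977 in the UEF TBI rats. At Monash it was 8217, 20772 and 8089 CPM in sham rats, and 15693, 10243, 15564, 6999 and 8062 CPM in TBI rats. At UCLA it was 8947, 5723 and 6693 CPM in sham rats and 5406 to 22239 CPM with a median of 16914 in TBI rats. Sham and TBI rats overlapped at every site. Within sites the log2 fold changes of let-7i were 0.48 (SE 0.426, adjusted p 0.681) for UEF, -0.13 (SE 0.496, adjusted p 0.995) for Monash, and for UCLA 1.15 (SE 0.508, adjusted p 0.400), and the model term for a difference between sites gave an adjusted p of 0.546.

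No member was called at any site. Within sites the calls over all 751 miRNAs came to 3.86% for UEF, 0% for Monash and 0.266% for UCLA, and DESeq2 called no member there either. At UCLA 2 members had an unadjusted p under 0.05, let-7i and miR-98, the latter with a log2 fold change of 0.87 (SE 0.390, adjusted p 0.400). No member was called for a difference of the injury effect between sites, where 1.07% of the miRNAs were called, and none had an unadjusted p under 0.05. The lowest adjusted p there was 0.397, for let-7g, whose within-site log2 fold changes were -0.43 (SE 0.336, UEF), -0.33 (SE 0.404, Monash) and 0.75 (SE 0.407, UCLA).

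**Figure D2:**
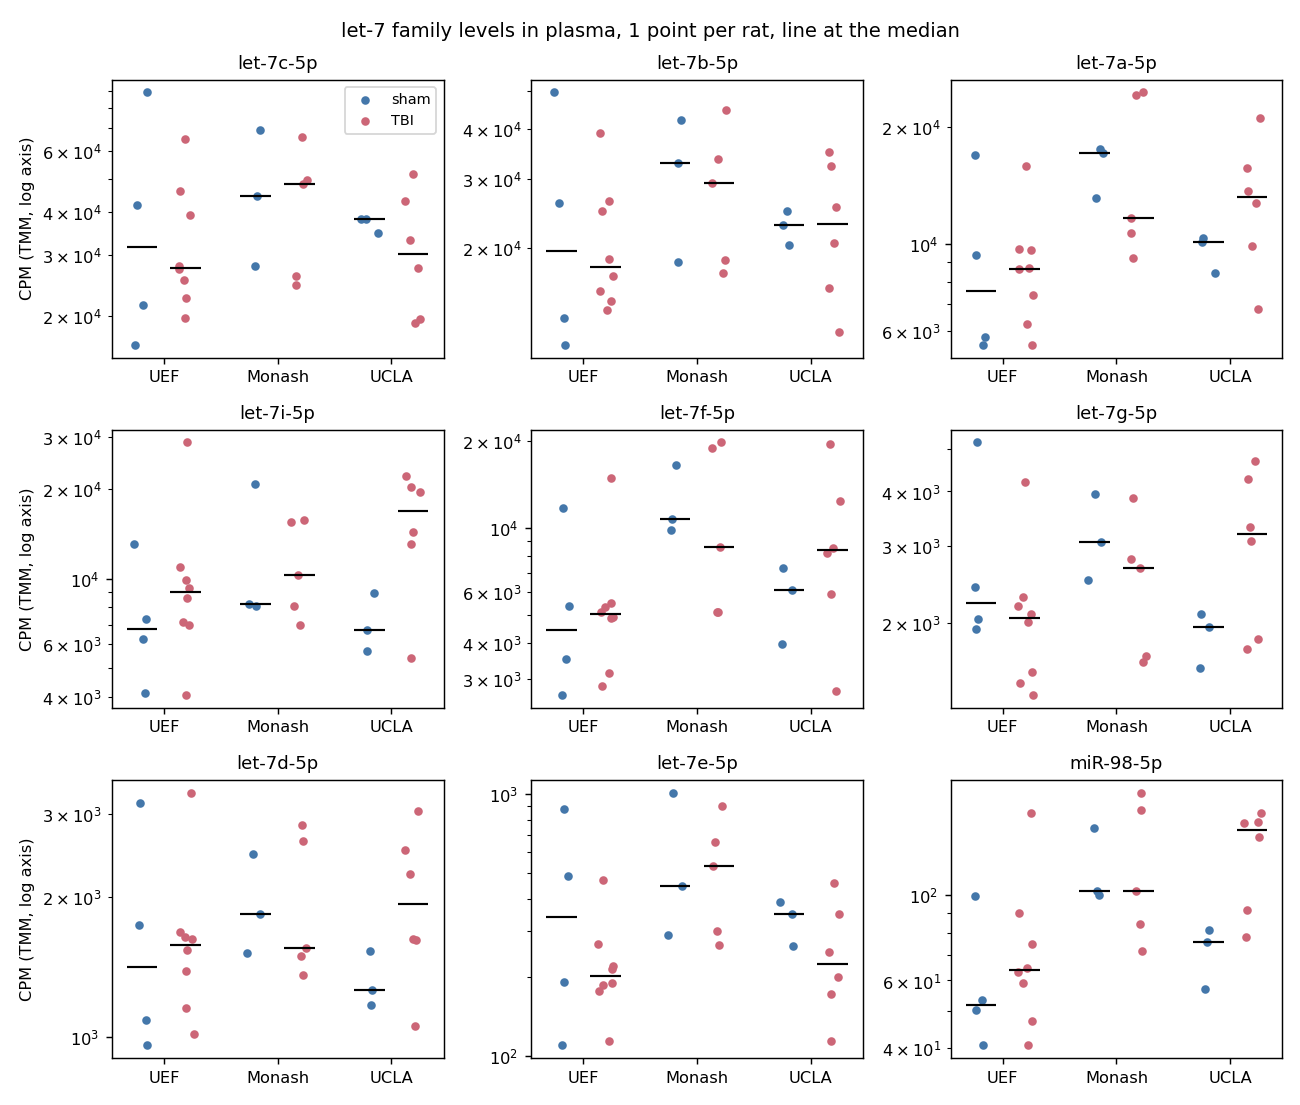
Each panel is 1 member, with the level of every rat in CPM on a log axis, sham rats in blue and TBI rats in red at each site, and a line at the median of each group. Sham and TBI rats overlap in every panel and site, and the 3 UCLA sham rats spread least for let-7c, between 34850 and 38354 CPM, and most for let-7f, between 3951 and 7252 CPM.

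Shares of the family need no scaling between rats, and at UCLA they separated the groups where the levels did not. let-7i held 9.67%, 7.48% and 7.51% of the family in the UCLA sham rats, and 10.9 to 19.2% with a median of 16.4% in the 6 TBI rats, a mean of 15.7% ± 3.18 (SD, n = 6). let-7c held 41.4%, 45.6% and 43.0% in the same sham rats, and 28.8 to 38.8% with a median of 31.8% in the TBI rats. The groups did not overlap for either member. At UEF, let-7i held 13.7%, 7.70%, 6.89% and 7.999% in sham rats and 7.64 to 16.7% with a median of 11.2% in TBI rats. At Monash it held 10.0%, 14.96% and 5.26% in sham rats and 10.5%, 13.2%, 8.79%, 6.65% and 11.7% in TBI rats. These groups overlapped.

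For 8 of the 9 members the share did not overlap between UCLA sham and TBI rats. let-7a, let-7d, let-7g, let-7i and miR-98 were higher and let-7b, let-7c and let-7e were lower in TBI rats, while let-7f overlapped. Over all 751 miRNAs, 5.73% had ratios to the family total that did not overlap between these groups. Most of these miRNAs are not part of that total, whereas each member is. The 5.73% is therefore not a like measure for the 8 of 9. The shares add up to 100% in each rat, so a change in any member moves the shares of the others. Which member moved was not tested. No member's share separated the groups at UEF or Monash, where 2.26% and 0.399% of all miRNAs did so. In an edgeR fit scaled to the family total, none of the 9 was called at UCLA, let-7i having a log2 fold change of 0.94 (SE 0.313, adjusted p 0.489). Over all rats, that fit gave 0.43 (SE 0.182, adjusted p 0.527) for let-7i and -0.42 (SE 0.157, adjusted p 0.392) for let-7e, and it called 0.133% of the miRNAs and no member.

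The count ratio of a red cell miRNA to another miRNA moved with the share of let-7i. The hemolysis ratio was the log2 ratio of the red cell miRNA miR-451-5p to miR-23a-3p, with 1 added to each count. The name does not mean that the plasma was hemolyzed. The study's qPCR of miR-23a and miR-451 found no hemolysis in any sequenced sample, and its absorbance measure passed the limit only slightly, in few samples. The ratio was -2.55, -2.90 and -3.32 in the UCLA sham rats and -2.38 to -1.06 in the UCLA TBI rats, without overlap. At UEF it ran from -3.57 to -2.81 among sham rats and from -3.05 to -0.87 among TBI rats, and at Monash from -3.37 to -1.33 and from -2.88 to -2.34. The summed level of the 6 red cell miRNAs was 212566 to 326576 CPM in UCLA sham rats and 363908 to 568629 CPM in UCLA TBI rats. In the same order it was 128726 to 204678 and 167696 to 632883 CPM at UEF, and 186617 to 459640 and 212727 to 322538 CPM at Monash. For TBI against sham all 6 had positive log2 fold changes at UEF and UCLA and negative ones at Monash. At UEF edgeR called 1 of them, miR-486 (adjusted p 0.00774), beside 3.86% of all miRNAs, and 3 of the 6 had an unadjusted p under 0.05. None was called at UCLA or Monash, where 3 and 0 of the 6 had such a p. The relation of this sum to the share was not tested.

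Over the 29 rats the share of let-7i correlated with the hemolysis ratio at Pearson's r = 0.803 and Spearman's rho = 0.787. The permutation p of each was 1e-05, the smallest that 100000 permutations can give. Adjusted over the 9 members by Benjamini-Hochberg it was 9e-05. Rats were permuted across sites and injury, so these p-values include differences between groups. The r within sites below also includes the difference between sham and TBI rats. Within sites r was 0.769 (UEF), 0.861 (Monash) and 0.832 (UCLA), and without the 2 rats farthest from the median ratio it was 0.752. let-7e (r = -0.621, rho = -0.596, adjusted permutation p 0.00126 and 0.00216) and let-7c (r = -0.571, rho = -0.613, adjusted permutation p 0.00360 and 0.00216) went the other way. Within sites r was -0.523, -0.732 and -0.840 for let-7e and -0.497, -0.608 and -0.800 for let-7c, in the order UEF, Monash, UCLA, and without the same 2 rats it was -0.591 and -0.584. let-7b (r = -0.472, rho = -0.456, adjusted permutation p 0.0231 and 0.0250) and let-7d (r = 0.439, rho = 0.456, adjusted permutation p 0.0307 and 0.0250) were also past the threshold, with r within sites of -0.558, -0.286 and -0.657 for let-7b and 0.148, 0.556 and 0.743 for let-7d. For miR-98 the adjusted permutation p was 0.135 for r = 0.321 and 0.0495 for rho = 0.399, and for let-7f it was 0.201 for r = 0.271 and 0.108 for rho = 0.328. let-7a (r = 0.0101, rho = 0.0926) and let-7g (r = 0.141, rho = 0.249) had adjusted permutation p above the threshold, the lowest being 0.218. With the hemolysis ratio added to the edgeR model the log2 fold change of let-7i for TBI against sham was -4.48e-05 in place of 0.47, and at UCLA it was 0.40 (SE 0.465, adjusted p 0.891) in place of 1.15. The ratio was measured in the same libraries as the shares, and what lies behind the relation was not tested.

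**Figure D3:**
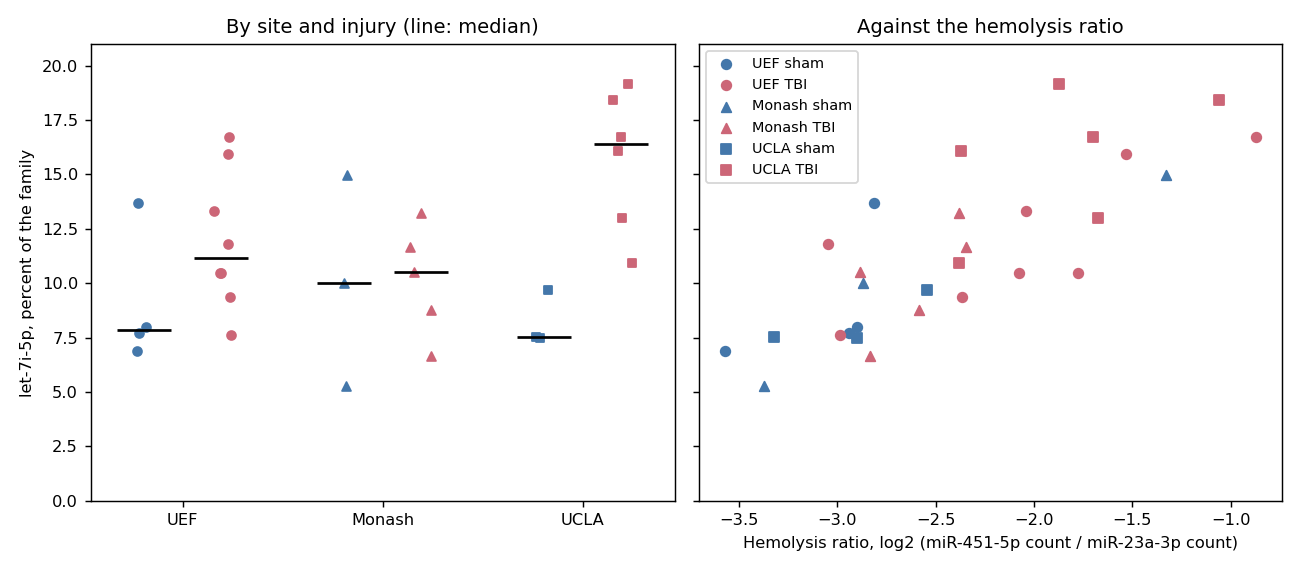
The left panel shows let-7i-5p as percent of the summed counts of the 9 members in every rat by site, sham in blue and TBI in red, with a line at the median, and the right panel shows the same values against the log2 hemolysis ratio, with a symbol for each site. The 6 UCLA TBI rats lie at 10.9% or more and the UCLA sham rats at 9.67% or less, and the share rises with the ratio at all 3 sites (r from 0.769 to 0.861).

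The second comparison set the injured rats with later epilepsy against those without. No member was called and none had an unadjusted p under 0.05 in edgeR, DESeq2 called none, and 0% of the 751 miRNAs were called. The log2 fold changes of the members ran from -0.21 to 0.03, with a median of -0.10 beside -0.0020 over all miRNAs and adjusted p of 0.998. In shares of the family, let-7i held 13.1% ± 3.79 (SD, n = 10) in TBIN and 12.2% ± 3.63 (SD, n = 9) in TBIE rats, and 9.12% ± 3.07 (SD, n = 10) in sham rats. For let-7c the shares were 36.5% ± 4.97 (SD, n = 10), 37.5% ± 5.08 (SD, n = 9) and 41.1% ± 5.13 (SD, n = 10). The ranges of TBIN and TBIE overlapped for every member.

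The third comparison asked whether levels differed between the sites, with condition in the model. In the test over all 3 sites 1 of the 9 members was called, miR-98-5p (adjusted p 0.0459), beside 14.8% of all 751 miRNAs. Between UEF and Monash 2 members were called, both lower at UEF. let-7a-5p had a log2 fold change of -0.80 (SE 0.256, adjusted p 0.0446) and miR-98-5p of -0.79 (SE 0.248, adjusted p 0.0436). Of all miRNAs 9.99% were called between these sites, and 5.59% were called and lower at UEF. let-7f, with -1.01 (SE 0.357, adjusted p 0.0631), and let-7e, with -0.96 (SE 0.337, adjusted p 0.0637), had larger estimates and lay just above the threshold. The other 5 members had log2 fold changes from -0.39 to -0.21. All 9 estimates were thus negative, as were 334 of all 751, with a median of -0.39 beside 0.06 over all miRNAs.

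let-7a measured 5508 to 16928 CPM with a median of 8648 in the 12 UEF rats, 9229 to 24489 CPM with a median of 15137 in the 8 Monash rats, and 6825 to 21028 CPM with a median of 10342 in the 9 UCLA rats. miR-98 measured 40.7 to 164 CPM with a median of 61.1 at UEF, 71.6 to 185 CPM with a median of 103 at Monash, and 57.1 to 164 CPM with a median of 91.6 at UCLA. The sites overlapped for both members, and the highest UEF rats, UEF sham replicate 3 for let-7a and UEF TBIN replicate 2 for miR-98, reached the upper part of the Monash range. UEF sham replicate 3 had the lowest TMM factor, which raises its CPM. let-7f measured 2633 to 14928 CPM at UEF, with a median of 5014, and 5121 to 19762 CPM at Monash, with a median of 10278.

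Both calls depended on single rats and on the model. Leaving out each rat in turn kept the call of miR-98 in 21 of 29 fits and that of let-7a in 19 of 29. Without UEF sham replicate 4, UEF TBIN replicate 1, UEF TBIN replicate 3, UEF TBIE replicate 4, Monash sham replicate 1, Monash sham replicate 3 or Monash TBIN replicate 1 no member was called, and without UEF sham replicate 3 there were 4, the others being let-7e and let-7f. No member was called in sham rats alone or in TBI rats alone, where 35 of 741 and 0 of 750 miRNAs were called. The median log2 fold change of the 9 was -0.53 and -0.43, beside 0.16 and 0.03 over all miRNAs. All 9 estimates were negative in each, but the members follow one another across rats, so these are not 9 separate results. The white cell and platelet miRNAs miR-142-5p (-0.86, SE 0.250, adjusted p 0.0359) and miR-223-3p (-0.82, SE 0.264, adjusted p 0.0456) were also lower at UEF. Over that list of 6, 2 were called, the median log2 fold change was -0.39, and the summed level was 52227 to 110344 CPM at UEF and 66827 to 136401 CPM at Monash. The 3 liver miRNAs went the other way, all with an unadjusted p under 0.05 and a median log2 fold change of 1.28. Of them miR-192-5p was called (1.26, SE 0.384, adjusted p 0.0389), and miR-122-5p (1.44, SE 0.500, adjusted p 0.0607) and miR-194-5p (1.28, SE 0.447, adjusted p 0.0628) were not. Their summed level was 30683 to 1737210 CPM at UEF and 23557 to 143186 CPM at Monash. The highest UEF value was that of UEF sham replicate 3, whose low TMM factor of 0.333 raises all its CPM values. None of the 6 red cell or the 4 neuronal miRNAs was called by edgeR, with 1 and 2 of them at an unadjusted p under 0.05. The part of any of these sources in the result was not tested.

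Scaling to the family total turned the direction of let-7b, let-7c, let-7d, let-7g and let-7i between UEF and Monash, while let-7a, let-7e, let-7f and miR-98 remained lower at UEF. The members make up that total, so their shares cannot all be lower at the same site, and some turn follows from the scaling. In the edgeR fit scaled to the family total let-7f was called (-0.60, SE 0.186, adjusted p 0.0365), and let-7e (-0.53, SE 0.185, adjusted p 0.0587) and let-7a (-0.33, SE 0.128, adjusted p 0.0758) were not. Of all miRNAs 10.8% were called, 97.5% of these higher at UEF, and the median log2 fold change was 0.58. Most of them are not part of the total, so the 10.8% is not a like measure for the members. let-7f held 6.43% ± 1.08 (SD, n = 12) of the family at UEF, 9.77% ± 2.96 (SD, n = 8) at Monash and 8.14% ± 2.24 (SD, n = 9) at UCLA. Among the 8 Monash rats its share ran from 4.87 to 13.2%, which covered the whole UEF range of 5.17 to 8.69%.

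Between UEF and UCLA no member was called, beside 9.32% of all miRNAs, and 1 member, miR-98, had an unadjusted p under 0.05 with a log2 fold change of -0.64 (SE 0.241, adjusted p 0.0983). DESeq2 called miR-98 there. Between Monash and UCLA no member was called by edgeR or DESeq2, beside 5.46% of all miRNAs, and 1 member, let-7e, had an unadjusted p under 0.05 with 0.96 (SE 0.374, adjusted p 0.152). let-7e measured 110 to 876 CPM with a median of 203 at UEF, 265 to 1015 CPM with a median of 489 at Monash, and 115 to 457 CPM with a median of 264 at UCLA. The sites overlapped.

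**Figure D4:**
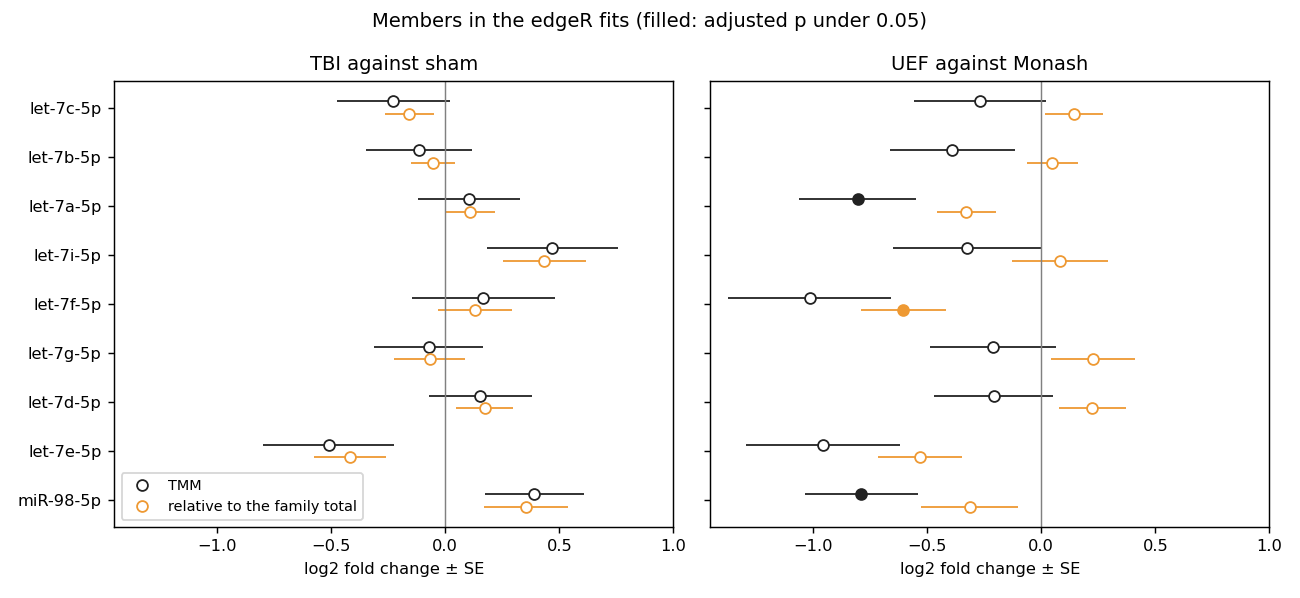
Points are log2 fold changes of the 9 members with bars of 1 SE, for TBI against sham on the left and UEF against Monash on the right, in black from the TMM-scaled fit and in orange from the fit scaled to the family total, and filled points passed an adjusted p of 0.05. No point is filled on the left, and on the right let-7a and miR-98 are filled in black and let-7f in orange.

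The 3p arms of the same hairpins were counted too. In 6 hairpins each arm has a name of its own, and the 5p arm exceeded the 3p arm in every rat for 4 of them, let-7b, let-7e, let-7g and let-7i. The 5p to 3p count ratio had a median of 480 for let-7i, 216 for let-7g, 212 for let-7b, 15.6 for let-7e and 4.52 for miR-98 over the 29 rats, and the 3p arm of miR-98 exceeded its 5p arm in 1 rat. For let-7d the median was 1.09, with a range of 0.414 to 2.90, and the 3p arm exceeded the 5p arm in 9 of 12 rats at UEF, 0 of 8 at Monash and 2 of 9 at UCLA. let-7d-3p had 2087 to 11179 counts, and its log2 fold change was 0.46 (SE 0.219, adjusted p 0.168) for UEF against Monash while that of let-7d-5p was -0.21 (SE 0.261, adjusted p 0.673). Of the 11 names of 3p arms, 0 were called in any comparison by edgeR. Their median log2 fold change for UEF against Monash was 0.45, with 9 positive and 2 negative, whereas the 9 members were all negative. 5 of the 11 had an unadjusted p under 0.05 there, and the lowest adjusted p was 0.0589.

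The cluster partners miR-99a, miR-99b, miR-100, miR-125a and miR-125b are processed from transcripts they share with let-7 members. Of their 11 names 10 passed the filter on low counts. None was called for TBI against sham, where their median log2 fold change was -0.06, or for TBIE against TBIN. In the site comparisons miR-125b-2-3p was called, over all sites (adjusted p 0.0311) and for Monash against UCLA (-0.96, SE 0.269, adjusted p 0.0252). For UEF against Monash all 10 had positive estimates and none was called, with a median of 0.29.

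The 5 miRNAs outside the family whose log2 CPM followed the mean of the 9 members most closely over the 29 rats were miR-3596a (Pearson's r = 0.921), miR-3596b (0.906), miR-26b-5p (0.886), miR-26a-5p (0.875) and miR-872-5p (0.863). These values describe 29 rats that share scaling factors and sites. Among the members themselves r was highest for let-7b with let-7c (0.975) and let-7a with let-7f (0.961) and lowest for let-7e with let-7i (0.431).

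The first of these miRNAs are annotated on the strand opposite let-7 members, and they are shown because they mirror the members base for base.
rno-miR-3596a: aacuauacaaccuacuaccuca
rno-miR-3596b: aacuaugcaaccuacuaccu
rno-miR-3596c: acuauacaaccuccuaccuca
rno-miR-3596d: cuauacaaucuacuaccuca

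miR-3596a was the exact complement of let-7a-5p over bases 1 to 22, miR-3596b of let-7d-5p over bases 3 to 22, miR-3596c of let-7e-5p over bases 1 to 21 and miR-3596d of let-7f-5p over bases 1 to 20. The median count of miR-3596a was 2845, or 10.9% of that of let-7a in the same rat, with a range of 7.79 to 14.3%. miR-3596b stood at 8.51% of let-7d, miR-3596c at 27.5% of let-7e and miR-3596d at 6.85% of let-7f in the median. Over the 29 rats miR-3596a, miR-3596b and miR-3596c followed the member they mirror at r = 0.886, 0.881 and 0.883, and miR-3596d at 0.422. The member most like miR-3596a was let-7b, at r = 0.982. None of the 4 was called in any comparison, and for UEF against Monash their log2 fold changes ran from -0.40 to -0.04. Whether the counting used the strand is not given in the sources used here, and without it the reads of a member and its antisense partner cannot be told apart.

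**Figure D5:**
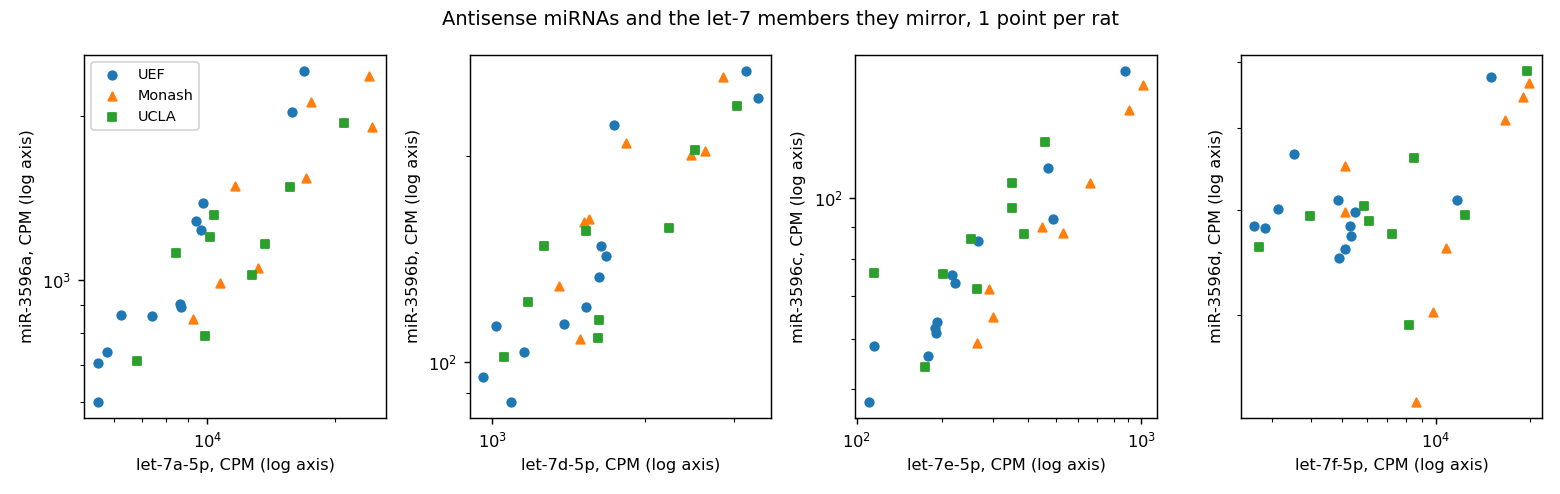
Each panel sets the level of an antisense miRNA in CPM against that of the let-7 member it mirrors, both on log axes, with 1 point per rat and a symbol for each site. The points rise together for miR-3596a, miR-3596b and miR-3596c (r from 0.881 to 0.886) and scatter for miR-3596d (r = 0.422).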

How the data were processed

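The submitters' table of raw read counts per mature miRNA was used as deposited. Per the labels and the study's methods, the authors extracted RNA from plasma, prepared libraries with the QIAseq miRNA kit, read 75-bp single ends on an Illumina NextSeq, trimmed with cutadapt and mapped with Bowtie to Rnor_6.0, with miRNA names from miRBase. The study's methods name a step that identified molecular identifiers and discarded reads with short ones. Whether reads were then merged by identifier is not given in the sources used here, so a count may be a read or a molecule. The precision of low counts covers counting error only. All 29 columns were matched to rats by the labels.

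The whole table of 754 miRNAs was tested in edgeR (version 4.0.16, R 4.3.3) with filterByExpr at a minimum count of 10, which left 751, TMM scaling and the quasi-likelihood F test, adjusted by Benjamini-Hochberg with a threshold of 0.05. Site and condition were both in the model, and within-site injury effects came from a model of site by injury. CPM values use TMM-scaled totals, and log2 CPM a prior count of 2. Standard errors are the log2 fold change over the root of F. Shares of the family are percentages of the summed counts of the 9 members and had no test of group differences. Scripts were tested on simulated data. No libraries were alike within sampling noise (chi-square per degree of freedom at least 75.3). Alternatives were DESeq2 (1.42.0), 6 other scalings, 2 other filters, a replicate block, no covariate, the hemolysis ratio, and leaving out each rat or site.

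The 9 members, the 3p arms, the cluster partners, the marker lists (red cells miR-451, miR-144, miR-486 and miR-16-5p, white cells and platelets miR-223-3p, miR-142, miR-150-5p and miR-126, liver miR-122-5p, miR-192-5p and miR-194-5p, neurons miR-124-3p, miR-9a and miR-128-3p) and the tests were chosen with earlier results of these data known. All members are named, and so are the 5 miRNAs most like the members by Pearson's r. Other lists are given by count and, where called, by name, in the comparisons reported for them. The marker lists are reported in full for TBI against sham and UEF against Monash only, and marker calls in other comparisons are not all named. The 4 antisense miRNAs and let-7d-3p were singled out after their values were seen.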

Additional observations from a re-analysis of the deposited data

Results flagged for a closer look

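Dixon's test for a value far from the rest of its group was applied to the level and the share of each member in groups of 4 to 10 rats, 144 groups in all. It marked 8 values, 4 of them levels and 4 shares. Chance marks about 1 group in 20, and the groups share rats.

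Among levels, UEF TBIN replicate 2 was far above the other 3 rats of its group for let-7i-5p, with 28727 CPM against 9319 CPM in the next, and for miR-98-5p, with 164 CPM against 64.8 CPM. The same rat had the highest hemolysis ratio of all 29, -0.87. UEF sham replicate 3, the rat with the lowest TMM factor, had 5181 CPM of let-7g-5p against 2415 CPM in the next UEF sham rat. UEF TBIE replicate 4 had the lowest let-7d-5p of its group, 1017 CPM against 1533 CPM.

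Among shares of the family, UEF sham replicate 1 had 13.7% let-7i-5p against 7.999% in the next UEF sham rat, and Monash sham replicate 1 had 16.02% let-7a-5p against 12.3% in the next of the 10 sham rats. UEF TBIN replicate 3 had the lowest let-7e-5p of its group, 0.219% against 0.268%. UCLA TBIE replicate 2 had 0.175% miR-98-5p against 0.123% in the next of the 9 TBIE rats.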

How the results depend on the processing

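No member was called for TBI against sham or TBIE against TBIN under any alternative run, nor for the injury effect by site. For UEF against Monash, the 2 calls became 3 with upper-quartile scaling or the hemolysis ratio (let-7f added) and with at least 100 counts in every rat (let-7a, let-7e and let-7f), 4 with DESeq2, with totals without the 3 most abundant miRNAs and with scaling to miR-28-3p, 5 with plain totals, 1 with scaling to the family total (let-7f), and 0 with the replicate block or with rats of 1 kind only (sham, or TBI). Over all sites, the 1 call, miR-98, was replaced by let-7e with scaling to the family total, and became 3 with DESeq2, upper-quartile scaling or at least 100 counts in every rat (a filter that removes miR-98), 4 with plain totals, totals without the top 3 or miR-28-3p, and 0 with the replicate block, without a covariate, or with rats of 1 kind only. For UEF against UCLA the 0 calls became 1 with DESeq2, upper-quartile scaling, totals without the top 3, miR-28-3p or the strict filter, and 2 with plain totals. For Monash against UCLA they became 1 with plain totals, totals without the top 3, miR-28-3p or the strict filter. Calls over all miRNAs tested moved as well. For UEF against Monash they were 109 of 742 with DESeq2, 26 of 188 with the strict filter and 33 of 751 with plain totals. Over all sites they were 157 of 727, 83 of 188 and 86 of 751, in the same order. For UEF against UCLA they were 88 of 511, 78 of 188 and 77 of 751. For Monash against UCLA the strict filter called 36 of 188 and plain totals 43 of 751. For UEF against Monash the other scalings and the hemolysis ratio called 18 to 81 of the 751 miRNAs. For TBI against sham at UEF plain totals called 2 members, let-7i and miR-98, beside 48 of all 751 miRNAs. Leaving out each rat gave 0 to 4 member calls for UEF against Monash and over all sites. It gave 0 to 1 for UEF against UCLA and for Monash against UCLA, and 0 elsewhere. The replicate numbers pair no rats by the labels: the deviations of same-numbered rats correlated at -0.0257 on average over 28 pairs, beside 0.00985 over 68 other pairs, so the block shows only a shared number.

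Directions turned, with no call, for TBI against sham: let-7g with plain totals (0.036), miR-28-3p (0.037), without the UEF rats (0.19) and without the Monash rats (0.034); let-7b with miR-28-3p (0.0030); let-7d (-0.045), let-7f (-0.12) and let-7i (-4.48e-05) with the hemolysis ratio; let-7a (-0.016) and let-7f (-0.10) without the UCLA rats. Leaving out each rat gave -0.19 to 0.091 for let-7b, -0.30 to 0.0035 for let-7c and -0.17 to 0.12 for let-7g, the highest of each without UEF sham replicate 3. With scaling to the family total let-7b (0.049), let-7c (0.14), let-7d (0.22), let-7g (0.23) and let-7i (0.082) turned positive for UEF against Monash, where the median of all miRNAs moved from 0.06 to 0.58, so all 9 members stayed below it. It was 0.22 with totals without the top 3. Calls over all miRNAs between these sites numbered 0 (TBI rats only) to 117 (without Monash TBIE replicate 2), with 44.0% higher at UEF in the main fit, 27.3% with plain totals, 66.7% without the top 3 and 97.5% with the family total. For TBI against sham they numbered 0 to 25.

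Without let-7c in the sum, the mean shares became 41.2% let-7b, 19.6% let-7a, 18.3% let-7i, 12.6% let-7f, 4.41% let-7g, 3.03% let-7d, 0.572% let-7e and 0.161% miR-98, and the family 5.84% of all counts. The cause of the other changes was not tested. Near-identical members may share reads.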
